A study of Mus musculus with 33 samples.

Results

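Inflammatory cytokine genes and the genes that hold NF-kB signalling in check were followed in lymphoid tissue of mice that drank nicotinamide (NAM), the amide form of vitamin B3. In the libraries labelled spleen, Il1rn fell to 0.627 times and Tnfaip3 to 0.835 times the untreated level after 1 day, 2 of 8 members tested where 16.6% of all genes were called. The call of Tnfaip3 was lost in 12 of 23 alternatives. In those labelled lymph node, Nfkbia rose 1.37-fold after 1 day and 1.22-fold after 3 days, the 1 member of 9 called at each, where 1.21% and 1.24% of all genes were. These calls were lost in 4 of 17 and 10 of 19 alternatives. After 14 days no member passed the test in either, where 0% and 0.791% of all genes did. Under the lymph node label Il1b missed the threshold of the main test at every duration. DESeq2, an alternative test, called it at 1, 3 and 14 days. At 14 days DESeq2 and a fit with library weights each called both Il1b and Nfkbia there. The 10 genes were Il1b, Tnf, Il6, Il18, Il1rn, Nfkbia, Tnfaip3, Nlrp3, Ptgs2 and Cxcl2, chosen by symbol, each with 1 row among the 56414 rows of the deposited table. Of these rows 36109 had reads.

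C57Bl/6 mice drank water with 0.5% NAM for 1, 3 or 14 days, and control mice were untreated. The methods describe the study's mice as females of 6 to 15 weeks kept free of specific pathogens, and the transcriptomes as a single experiment. Polyadenylated RNA was sequenced in 20 libraries labelled spleen, with 5 in each of the 4 groups, and in 13 labelled lymph node, of which 3 were from untreated mice, 2 from mice at 1 day and 4 from each later duration. No allele, cell sort or other treatment separated the groups. The comparisons were each duration against untreated, 14 days against 1 day for spleen and against 3 days for lymph node, and the change under one label against the change under the other.

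NF-kB is a family of transcription factors that waits in the cytoplasm bound to inhibitors and enters the nucleus when receptors for TNF, IL-1 or microbial products trigger destruction of the inhibitor. Nfkbia encodes that inhibitor, IkB-alpha, and Tnfaip3 encodes A20, an enzyme that edits ubiquitin chains upstream of it. NF-kB switches on both genes, so each closes a negative feedback loop. Macrophages, monocytes, neutrophils and dendritic cells of lymphoid organs are among the textbook sources of IL-1 beta, TNF and IL-6.

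The labels of the tissues did not match their markers. Glycam1, the mucin of lymph node high endothelial venules, was counted at 108167 to 214210 in the libraries labelled spleen and at 1.59 to 12.4 in those labelled lymph node. Spic, the transcription factor of splenic red pulp macrophages, was at 774 to 1295 under the spleen label and at 6117 to 10491 under the lymph node label. All 33 of 33 libraries went against their label, so a tissue name below means the libraries that carry that label, and no subset that follows its label was left to compare. Depth was 18325061 to 54830743 reads under the spleen label and 30424968 to 46733974 under the lymph node label. Fewer cells of a type and less RNA per cell cannot be told apart in such bulk samples. In the libraries labelled spleen the summed level of 10 adipocyte markers ran from 33120 to 471404 between libraries. The mitochondrial share of reads under the spleen label was 8.92 to 9.85% untreated and 4.85 to 8.21% at 1 day, without overlap, then 5.95 to 14.0% at 3 days, highest in replicate 1, and 8.44 to 11.9% at 14 days. Depth at 3 days there, 43632016 to 54830743 reads, was above the 18325061 to 31486631 of the untreated libraries, and its part in the members' values was not tested. The lymph node library of NAM 1 d replicate 1 held pancreatic acinar markers at 126926 against 628 to 1270 in the other libraries of that label.

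NF-kB acts at promoters and at more distant elements, so the promoters of the 4 members that the results turn on are shown, from 250 bases before to 50 bases after the start, from RefSeq on GRCm38.p6. Capitals mark matches to the 10-base NF-kB consensus, searched on both strands and counting overlapping matches.
Nfkbia promoter (chr12:55492598-55492897, minus strand): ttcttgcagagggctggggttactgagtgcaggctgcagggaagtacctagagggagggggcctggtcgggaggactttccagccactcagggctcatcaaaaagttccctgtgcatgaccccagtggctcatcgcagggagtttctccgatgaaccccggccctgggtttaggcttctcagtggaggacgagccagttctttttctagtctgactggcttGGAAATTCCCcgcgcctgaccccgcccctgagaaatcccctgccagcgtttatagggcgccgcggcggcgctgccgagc
Tnfaip3 promoter (chr10:19015361-19015660, minus strand): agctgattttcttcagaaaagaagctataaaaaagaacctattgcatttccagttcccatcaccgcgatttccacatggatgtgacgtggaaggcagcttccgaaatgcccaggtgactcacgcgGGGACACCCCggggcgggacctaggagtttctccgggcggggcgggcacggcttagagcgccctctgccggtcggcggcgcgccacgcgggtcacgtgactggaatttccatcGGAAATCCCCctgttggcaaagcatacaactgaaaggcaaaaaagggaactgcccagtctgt
Il1b promoter (chr2:129371090-129371389, minus strand): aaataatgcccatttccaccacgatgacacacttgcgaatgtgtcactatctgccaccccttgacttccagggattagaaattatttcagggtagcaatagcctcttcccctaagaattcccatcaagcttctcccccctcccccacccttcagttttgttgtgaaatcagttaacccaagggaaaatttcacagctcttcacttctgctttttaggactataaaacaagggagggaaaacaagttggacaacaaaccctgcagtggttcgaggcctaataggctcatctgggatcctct
Il1rn promoter, first start (chr2:24336610-24336909, plus strand): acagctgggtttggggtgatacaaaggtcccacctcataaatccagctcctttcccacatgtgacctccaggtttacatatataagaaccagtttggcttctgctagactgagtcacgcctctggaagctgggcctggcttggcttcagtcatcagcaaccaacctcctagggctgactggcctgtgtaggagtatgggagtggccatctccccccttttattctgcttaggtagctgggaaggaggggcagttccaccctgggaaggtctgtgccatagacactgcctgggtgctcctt

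In mm10, as the table gives it, the rows span chr12:55489409-55492647 for Nfkbia and chr10:19000913-19015410 for Tnfaip3, both on the minus strand, chr2:129364577-129371142 for Il1b on the minus strand and chr2:24336853-24351494 for Il1rn on the plus strand. In the windows shown Nfkbia had 1 match, beginning 29 bases before the start, and Tnfaip3 had 2, beginning 125 and 12 bases before it. All 10 members had at least 1 promoter in the RefSeq table, with 14 windows in all. A match was found for 5 of the 10 members, namely Nfkbia, Tnfaip3, Il6, Nlrp3 and Cxcl2, which is 5 of the 14 windows, and in 4.51% of all 32851 promoters of the same length. Il6 carried GGGATTTTCC at 44 bases before its start, and Cxcl2 carried 2 overlapping matches beginning 97 and 96 bases before its start. The members were chosen as inflammatory cytokine and NF-kB feedback genes, so a share above that of all promoters is no independent result. The matches are of letters and describe no binding. No match says only that the consensus is not in this window, as for Il1b, Tnf, Il1rn, Il18 and Ptgs2.

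Across the labels, levels were set on a joint scale, since the authors scaled each label on its own. In untreated mice Il1b, the pro-form of the fever cytokine IL-1 beta, stood at 98.5 ± 33.8 (SD, n = 5) under the spleen label and at 580 ± 72.5 (SD, n = 3) under the lymph node label, 5.89-fold higher in the latter. Il18, a cytokine that drives interferon-gamma release, was 4.95-fold higher under the lymph node label, and Nlrp3, the sensor of the inflammasome that matures both cytokines, was 2.32-fold higher there. Tnfaip3 was the opposite, at 2956 ± 200.4 (SD, n = 5) against 1371 ± 59.4 (SD, n = 3), 2.16-fold higher under the spleen label. For these 4 genes the untreated ranges did not overlap, 4 of the 8 members past the low-value filter in both labels, where 59.6% of 17147 genes did not. The ranges overlapped for Tnf, Il6, Il1rn, Nfkbia, Ptgs2 and Cxcl2. These level differences are descriptive and were not tested.

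In the libraries labelled spleen, Il1rn was the member with the clearest change. It encodes the IL-1 receptor antagonist, a decoy ligand that blocks the IL-1 receptor. Its normalised read counts were 223, 259, 424, 209 and 290 in untreated mice and 141, 163, 160, 178 and 218 after 1 day of NAM. All but 1 of the libraries at 1 day lay below the lowest untreated library. The log2 fold change was -0.67 with a standard error of 0.16 (limma, adjusted p = 0.00942). At 3 days the counts were 197, 183, 205, 232 and 204 (log2 fold change -0.42, limma adjusted p = 0.141), and 4 of 5 libraries again lay below the untreated range. At 14 days they were 248, 196, 192, 206 and 284, with a log2 fold change of -0.29 (adjusted p = 1) and 3 of 5 libraries below that range. The change at 1 day passed the threshold in all 23 alternatives, with adjusted p from 0.000997 to 0.0393.

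Tnfaip3 fell less. Its normalised counts were 3047, 2693, 2899, 2863 and 2589 untreated and 2572, 1859, 2447, 2418 and 2532 at 1 day, so that every treated library lay below the lowest untreated one. How many of all genes did so at 1 day was not counted. The log2 fold change of Tnfaip3 was -0.26 with a standard error of 0.08 (limma, adjusted p = 0.0403). At 3 days the counts were 2818, 2335, 2295, 2553 and 2276 (log2 fold change -0.20, adjusted p = 0.166), and at 14 days 2872, 2461, 2675, 2713 and 2458 (log2 fold change -0.10, adjusted p = 1). The call at 1 day was lost on leaving out untreated replicate 1, 2, 3 or 4 (adjusted p = 0.0976, 0.0509, 0.0732 and 0.0743) or NAM 1 d replicate 2, 3 or 4 (adjusted p = 0.101, 0.0533 and 0.0594). Replicate 2 at 1 day was the lowest library, at 1859, and without it the log2 fold change was -0.18. It also stood apart over all genes, with a score of 74.25 on the first principal component (30.1% of variance) against -14.63 to 28.15 in the other libraries at 1 day, and it held the highest adipocyte sum. The call was lost too in edgeR (adjusted p = 0.0517), without the filter (0.0696) and with only the groups compared (0.0897). Leaving out NAM 3 d replicate 1, the library with the highest mitochondrial share, brought the change at 3 days to -0.25 (adjusted p = 0.0468).

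These were 2 of 8 members tested at 1 day, both lower, where 16.6% of all 18243 genes tested were called in either direction. All 8 log2 fold changes were below 0, with a median of -0.23, against a median near 0 over all genes. With the adipocyte score as a covariate, an alternative chosen after the data were seen, 3 of the 8 were above 0, Tnf at 0.05, Il18 at 0.10 and Nfkbia at 0.01. Nlrp3 read 113, 151, 197, 112 and 135 untreated and 109, 68.1, 118, 104 and 92.0 at 1 day (log2 fold change -0.51, limma adjusted p = 0.0673). Il1b read 76.2, 98.8, 138, 52.2 and 104 untreated and 50.05, 73.3, 72.0, 59.7 and 69.0 at 1 day (log2 fold change -0.47, limma adjusted p = 0.160). The untreated and treated libraries of both genes overlapped. Without untreated replicate 4, the lowest untreated library, the value of Il1b was -0.66 (adjusted p = 0.0391). Nfkbia stayed within its own spread, at 5366 to 7648 untreated and 5087 to 6835 at 1 day (log2 fold change -0.09, 95% interval -0.28 to 0.10). Tnf, Il18 and Ptgs2, the inducible cyclooxygenase of prostaglandin synthesis, had log2 fold changes of -0.17, -0.01 and -0.20, and none passed the test.

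Marker lists were counted beside these values, where 16.6% of all genes were called at 1 day. Of the lists with a call, those for adipocytes, neutrophils and glucocorticoid response were below that share and the immediate early list was furthest above it, at 46.2%. At 1 day, 1 of 10 adipocyte markers was called, Retn, and the list's sum was 110151 to 471404 against 33120 to 185068 untreated, with none of its markers at 0. Within groups, the deviations of Tnf, Nfkbia, Il18, Tnfaip3 and Nlrp3 ran against the adipocyte score across 20 libraries (Pearson r = -0.81, -0.70, -0.64, -0.59 and -0.43), while r was -0.12 for Il1rn, -0.05 for Il1b and -0.02 for Ptgs2. NAM 1 d replicate 2, with the highest adipocyte sum, also had the lowest Tnf, Tnfaip3 and Nlrp3 counts of the 20 libraries (394, 1859 and 68.1). The part of this library in these r values was not tested. Il1rn and Il1b went with the macrophage score (0.68 and 0.58), and Il1rn also with the high endothelial venule (0.62) and immediate early scores (0.505). Nfkbia went with the high endothelial venule, T cell, dendritic cell and B cell scores (0.86, 0.85, 0.76 and 0.72), and Tnfaip3 with the dendritic cell and T cell scores (0.64 and 0.59). Tnf went with the T cell, B cell and dendritic cell scores (0.765, 0.67 and 0.61) and against the monocyte score (-0.62), with -0.18 for macrophages. These values share the library and its scaling. With the adipocyte score as a covariate the change of Il1rn was -0.64 (limma, adjusted p = 0.0142) and that of Tnfaip3 was -0.18 (adjusted p = 0.104). Of 11 neutrophil markers tested, 1 was called at 1 day, Ltf, with sums of 1043 to 12496 against 580 to 2265 untreated. Among 13 immediate early genes, 5 were lower and 1 was higher at 1 day, and of 10 macrophage markers Cd68 was lower and Vcam1 higher. Of 7 rows of B cell markers 2 were lower, both of Pax5, and of 4 markers of high endothelial venules Madcam1 was lower. Sgk1 was lower among 10 glucocorticoid-responsive genes. The mitochondrial share given above also separated the untreated libraries from those at 1 day. The part of that share and of these lists in the members' values was not tested. The covariate fit uses a score from the same libraries and settles no cause.

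**Figure D1:**
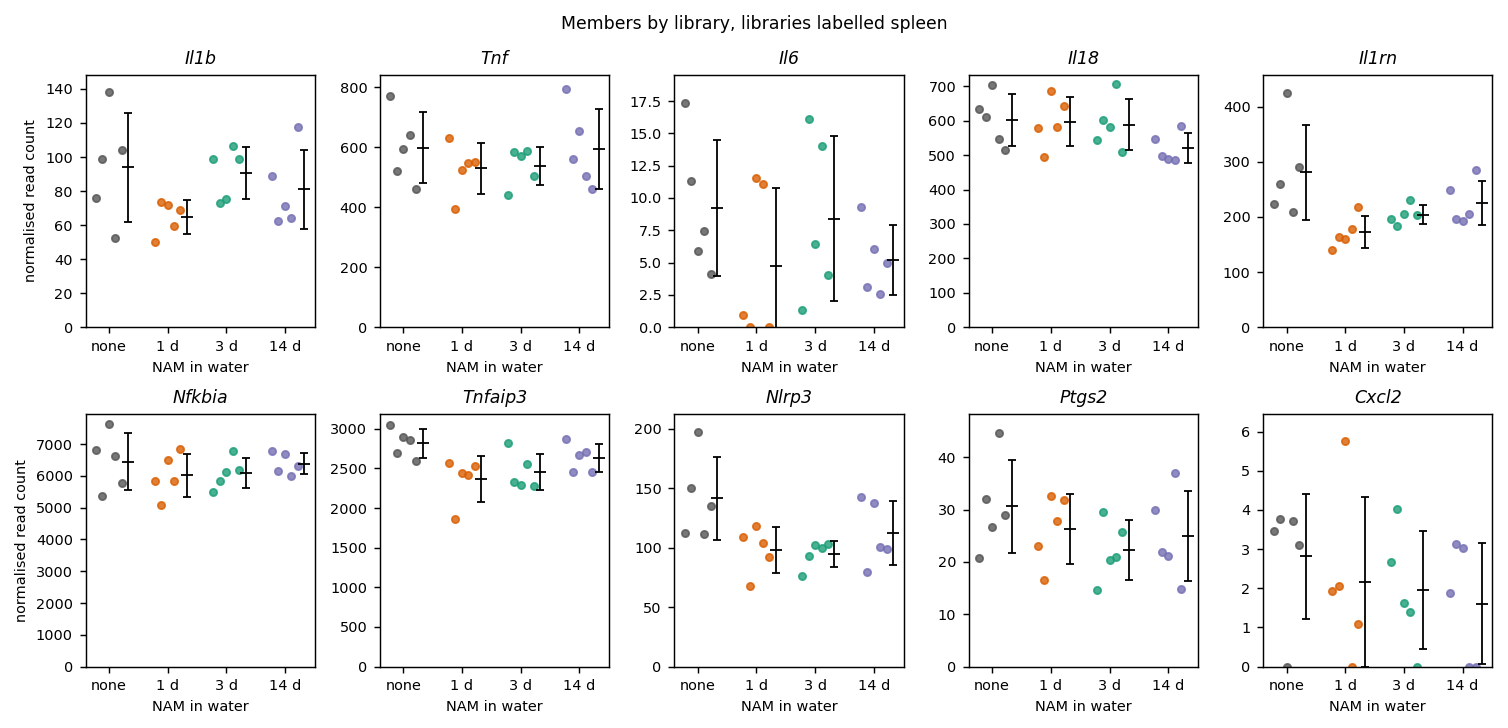
Normalised read counts (linear axes from 0) of the 10 members in each of the 20 libraries labelled spleen, by NAM duration, with the mean and SD of each group as a black bar (clipped at 0 for Il6 and Cxcl2). All 5 Tnfaip3 libraries at 1 d lie below the untreated ones, and 4 of 5 Il1rn libraries do. The share of all genes with such a separation was not counted.

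After 3 days 0 of 8 members were called, with 5.55% of all genes called. Nlrp3 came nearest, at 76.0, 92.7, 102, 99.6 and 103, all below the untreated libraries, with a log2 fold change of -0.55 (limma adjusted p = 0.0872). Il1b lay inside the untreated range, at 73.2 to 107 (log2 fold change 0.00, 95% interval -0.46 to 0.47). Ptgs2 had a log2 fold change of -0.43 and Tnf one of -0.14, while Nfkbia and Il18 were at -0.08 and -0.03. At 14 days 0 members were called, and 0% of the 18243 genes passed the limma threshold, with 510 at an unadjusted p under 0.05, 0 by edgeR and 1 by DESeq2. The largest member value at 14 days was that of Nlrp3, -0.33 (95% interval -0.73 to 0.06). Ptgs2 followed at -0.30, then Il1rn at -0.29, Il18 at -0.20, Il1b at -0.18 and Tnfaip3 at -0.10, with Tnf at -0.01 and Nfkbia at 0.00. Between 14 days and 1 day 0 of 8 members were called, where 10.6% of genes were, and Il1rn came nearest (log2 fold change 0.39, adjusted p = 0.140). The values of Il1b, Nlrp3, Tnfaip3, Tnf and Nfkbia were 0.29, 0.18, 0.16, 0.16 and 0.09, and those of Ptgs2 and Il18 were -0.10 and -0.19. The comparisons with untreated mice share the same control libraries.

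Il6 and Cxcl2 were under the low-value filter of a mean of 10 under the spleen label. Il6, a cytokine of the acute phase response, read 17.3, 11.3, 5.93, 7.46 and 4.13 untreated and 0.963, 0, 11.52, 11.1 and 0 at 1 day, with 0 to 24 reads over all 20 libraries. Cxcl2, a neutrophil-attracting chemokine, had 0 to 6 reads. Over 9 two-sided exact permutation tests of members under the filter in either label, adjusted p was 0.643 to 1. The smallest p these designs allow is 0.00794 for 5 against 5 libraries, 0.2 for 2 against 3 and 0.0571 for 4 against 3. None of these tests passed, and those of the lymph node designs could not reach 0.05 whatever the values.

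Under the lymph node label Nfkbia rose. Its normalised counts were 6106, 6421 and 7171 in untreated mice and 9407 and 8579 after 1 day of NAM. At 3 days they were 7508, 8170, 7933 and 8504, and at 14 days 7886, 7330, 8279 and 7932. Every treated library was above every untreated one, both libraries at 1 day lay above all others, and the ranges at 3 and 14 days overlapped. The log2 fold change was 0.46 with a standard error of 0.08 at 1 day (limma, adjusted p = 0.0113), 0.29 with a standard error of 0.07 at 3 days (adjusted p = 0.0464) and 0.26 with a standard error of 0.07 at 14 days (adjusted p = 0.0910). Nfkbia was the 1 member of 9 called at 1 day, where 1.21% of 18215 genes were called, and the 1 of 9 called at 3 days, where 1.24% were. At 14 days 0 of 9 members were called, against 0.791% of genes.

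The call at 1 day was lost without NAM 1 d replicate 1, the library with pancreatic markers (log2 fold change 0.39, adjusted p = 0.0998), and without untreated replicate 1 or 2 (adjusted p = 0.0535 and 0.0604). That library stood apart over all genes, with a score of 65.01 on the first principal component (18.1% of variance) against -18.45 to 6.14 in the other 12. Leaving out either library at 1 day leaves a lone sample that is assumed to vary like the other groups. At 3 days it was lost in edgeR (adjusted p = 0.0516) and without untreated replicate 1 or 2 (adjusted p = 0.223 and 0.232) or NAM 3 d replicate 2, 3 or 4 (adjusted p = 0.122, 0.0986 and 0.0738). The same held without the filter (0.0806), under quantile normalisation (0.0654) and with the replicate block (0.0922), and the change was under 1.5-fold. The change of Nfkbia at 1 day was under 1.5-fold too. By an unadjusted p with a 1.5-fold change Il1b passed at 1 day and Nfkbia did not.

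Il1b had larger fold changes and more spread. Its counts were 524, 674 and 634 untreated, 904 and 957 at 1 day, 718, 841, 1045 and 796 at 3 days, and 821, 760, 1112 and 934 at 14 days. Here too all 10 treated libraries stood above the 3 untreated ones. The log2 fold change was 0.61 at 1 day (95% interval 0.28 to 0.95, limma adjusted p = 0.0747), 0.47 at 3 days (0.19 to 0.76, adjusted p = 0.108) and 0.56 at 14 days (0.28 to 0.85, adjusted p = 0.0626). None of the 3 values passed the threshold, though that at 14 days did without NAM 14 d replicate 2 (0.64, adjusted p = 0.0399). DESeq2 on the recovered reads called all 3, with adjusted p = 0.0130, 0.0223 and 0.00399. Limma called it at 1 day with only the groups compared (0.0303), at 1 and 14 days with the replicate block (0.0213 and 0.0286) and at 3 and 14 days with library weights (0.0285 and 0.0289). Reads of Il1b cannot be told apart from those of the overlapping antisense gene Il1bos, since the use of strand in counting was not given.

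Pooled over durations, 2 of the 9 members tested, Il1b and Nfkbia, had every treated library above every untreated one under the lymph node label, as 1.84% of all genes did. In the libraries labelled spleen 0 of 8 members did, against 0.0713% of all genes. This reading was chosen after the values were seen. Separation at a single duration, or of treated libraries below untreated ones, was not counted over all genes.

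The other cytokines did not pass the test at any duration. Tnf read 892, 769 and 848 untreated and 668 and 568 at 1 day, with both treated libraries lower (log2 fold change -0.44, limma adjusted p = 0.129). It was at 796 to 985 at 3 days and 618 to 867 at 14 days, overlapping the untreated range (log2 fold changes 0.05 and -0.14). Il18 read 3227 to 3392 untreated and 2671 to 3739 in treated mice, with log2 fold changes of 0.11, -0.09 and -0.01. Il6 ran from 1.59 to 24.3, with log2 fold changes of 0.64, 0.21 and -0.74. Its 95% interval at 1 day, -0.91 to 2.18, is too wide to give a direction.

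Tnfaip3 was at 1424, 1391 and 1514 untreated and at 1686 and 1823 after 1 day (log2 fold change 0.28, 95% interval 0.08 to 0.48, limma adjusted p = 0.164), so the 2 libraries lay above the untreated range without passing the test. It was at 1275 to 1581 at 3 days and 1353 to 1474 at 14 days (log2 fold changes 0.00 and -0.03). Il1rn was narrow throughout, at 288 to 388 over all 13 libraries, and its log2 fold changes were 0.12, 0.07 and 0.01. Nlrp3 read 363, 395 and 329 untreated, 299 and 307 at 1 day, and 250, 256, 303 and 349 at 3 days (log2 fold change -0.33 at 3 days, limma adjusted p = 0.231, and -0.09 at 14 days). Of its treated libraries 7 of 10 were below all untreated ones, and the groups overlapped at 3 days. Ptgs2, at 4 to 28 reads, had log2 fold changes of 0.30, 0.27 and 0.11, and Cxcl2, at 0 to 9 reads, fell under the filter. The 95% interval of Ptgs2 at 1 day was -0.91 to 1.52. Between 14 and 3 days 0 of 9 members were called, against 0.011% of genes, where limma called 2 genes in all and 1064 had an unadjusted p under 0.05. Il6 had the lowest log2 fold change there, -0.95, and Nlrp3 the highest, 0.25. Il1b, Il18, Tnfaip3, Nfkbia, Il1rn, Ptgs2 and Tnf were at 0.09, 0.08, -0.02, -0.03, -0.06, -0.16 and -0.19.

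**Figure D2:**
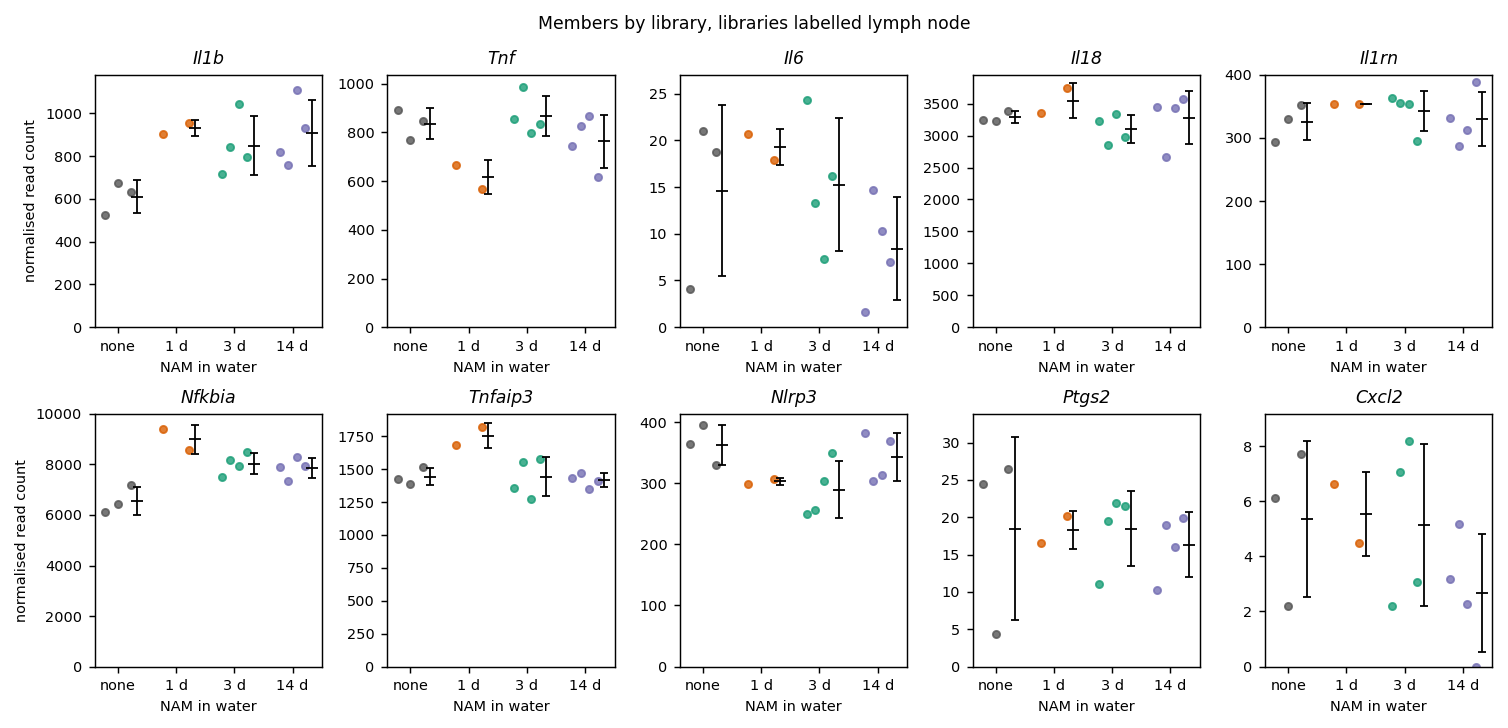
Normalised read counts (linear axes from 0) of the 10 members in each of the 13 libraries labelled lymph node, by NAM duration, with the mean and SD of each group as a black bar. Every treated library of Il1b and of Nfkbia lies above the 3 untreated ones.

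Several marker lists had calls in the same libraries, where 1.21%, 1.24% and 0.791% of all genes were called at 1, 3 and 14 days. Each list with a call held at least 7.69% called at that duration, which is 1 gene of 13. Of 10 genes that respond to glucocorticoids, 3 were higher at 1 day (Ddit4, Tsc22d3 and Klf9), with sums of 53468 to 56826 against 18843 to 28596 untreated. At 3 days 2 of this list, the metallothioneins Mt1 and Mt2, were lower and none was higher, with sums of 25623 to 36845. At 14 days the same pair was lower while Tsc22d3 and Ddit4 were higher, with sums of 31665 to 39256. At 1 day 3 of 10 macrophage markers were higher, the complement genes C1qa, C1qb and C1qc, with sums of 163887 to 172361 against 127146 to 127905. Cd14 was higher among 8 monocyte markers, with sums of 7597 to 8082 against 6342 to 7591, and Dusp1 among 13 immediate early genes. None of 12 neutrophil markers was called at 1 day, with sums of 28800 to 39932 against 14167 to 26474. Of 9 erythroid markers, 6 were lower at 3 days, with sums of 320911 to 1388591 against 1453201 to 3060021 untreated, and 1 at 14 days, Klf1. Ly6c2 among the monocyte markers and Fscn1 among 8 dendritic cell markers were higher at 3 days. At 14 days 2 of 12 neutrophil markers were lower, with sums of 11789 to 20858. No marker of these lists was at 0 in all libraries of the label. Within groups, across 13 libraries, Nfkbia and Il1b went most with the list of spleen markers (Pearson r = 0.65 and 0.63), and Nfkbia next with the immediate early list (0.60). Tnf ran against the monocyte and macrophage lists (-0.8 and -0.77) and went with the T cell and B cell lists (0.48 and 0.46). The part of these lists in the values of Nfkbia and Il1b was not tested.

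**Figure D3:**
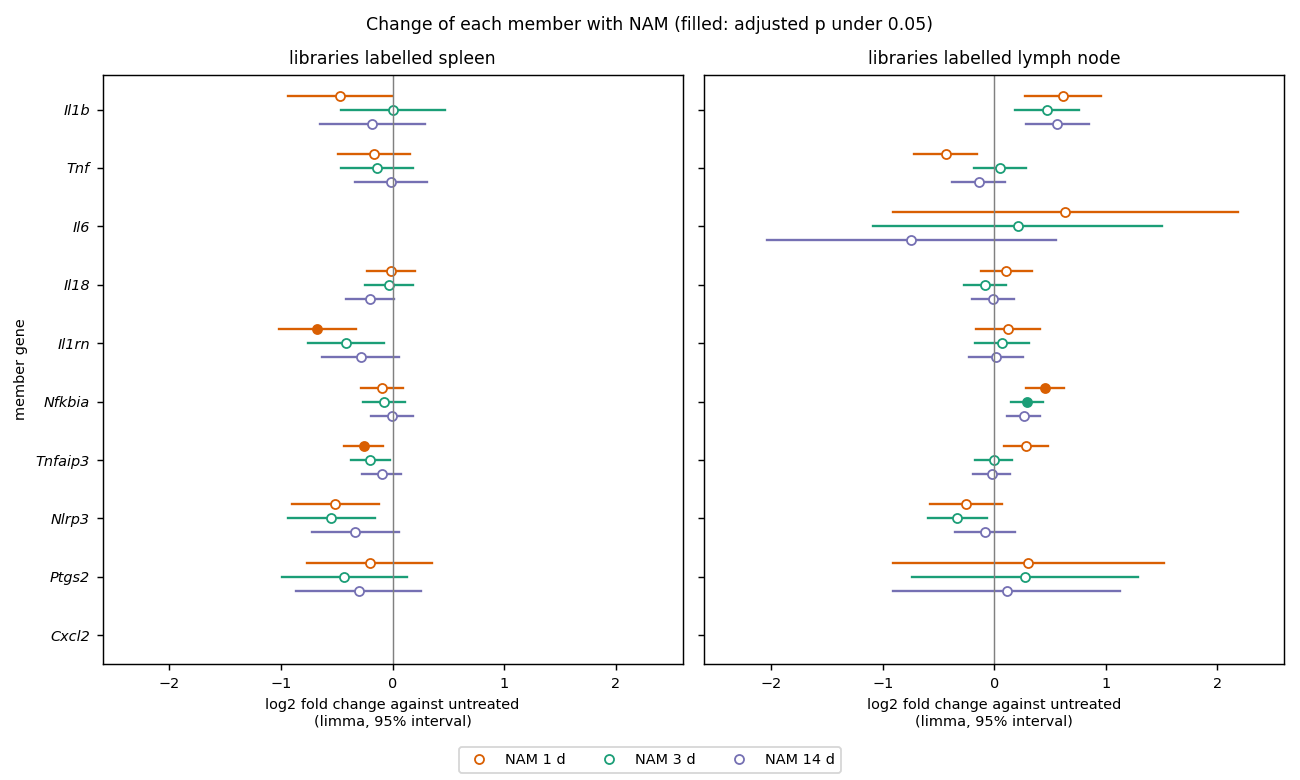
Log2 fold change of each member against untreated (limma on log2 of the normalised count plus 1), with its 95% interval, for the libraries labelled spleen and lymph node, coloured by NAM duration. Filled points passed an adjusted p of 0.05 (Il1rn and Tnfaip3 at 1 d under the spleen label, Nfkbia at 1 d and 3 d under the lymph node label), and members under the low-value filter have no point.

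The difference between the labels was tested directly at each duration, on 8 members past the filter in both. At 1 day 2 of 8 were called, where 1.69% of 17147 genes were. The change of Nfkbia under the spleen label was lower by 0.55 log2 units than under the lymph node label (log2 difference -0.55, standard error 0.14, limma adjusted p = 0.0402). For Tnfaip3 the difference was -0.54 (standard error 0.14, adjusted p = 0.0386). Il1b and Il1rn had differences of -1.08 and -0.80 that did not pass (adjusted p = 0.0852 and 0.0923), and without spleen untreated replicate 4 that of Il1b was -1.27 (adjusted p = 0.0274). Ptgs2, Nlrp3, Il18 and Tnf had differences of -0.51, -0.26, -0.12 and 0.27. At 3 days 0 of 8 were called against 0.735% of genes, and Nfkbia came nearest at -0.37 (adjusted p = 0.164), with the other members between -0.71 for Ptgs2 and 0.05 for Il18. At 14 days 0 of 8 were called against 0.14% of genes, and Il1b had the smallest p (log2 difference -0.74, adjusted p = 0.866), with the others between -0.41 for Ptgs2 and 0.13 for Tnf. The calls at 1 day were lost in 13 of 27 alternatives for Nfkbia and 11 of 27 for Tnfaip3. Both genes failed by an unadjusted p with a 1.5-fold change, by which Il1b and Il1rn passed instead. The calls of Nfkbia and Tnfaip3 were lost without the filter (adjusted p = 0.0655 and 0.0593) and when only the 4 groups compared entered the fit (adjusted p = 0.141 for Nfkbia and 0.0934 for Tnfaip3). They were also lost without the lymph node libraries of NAM 1 d replicate 1 or 2 or untreated replicate 1 or 2, and without the spleen libraries of NAM 1 d replicate 4 or untreated replicate 1 or 3. For Nfkbia alone the call was lost without spleen NAM 1 d replicate 1 or 2 or spleen untreated replicate 4, and for Tnfaip3 alone without lymph node untreated replicate 3. The adjusted p then ran up to 0.184 for each gene.

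Ratios of a pair within a library are free of the scaling. The ratio of Il1b to its antagonist Il1rn was 1.87 ± 0.146 (SD, n = 3) in untreated mice under the lymph node label. After 1 day it was 2.63 ± 0.103 (SD, n = 2). The later values were 2.499 ± 0.423 after 3 days and 2.77 ± 0.535 after 14 days (SD, n = 4 each). One library at 3 days, at 1.98, fell inside the untreated range of 1.78 to 2.04, and the others lay above it. In the libraries labelled spleen the ratio was 0.331 ± 0.050 (SD, n = 5) untreated and 0.381 ± 0.063, 0.443 ± 0.057 and 0.355 ± 0.041 (SD, n = 5) at 1, 3 and 14 days, with overlapping ranges. The ratio of Nfkbia to Tnfaip3 was 4.29 to 4.74 untreated under the lymph node label and 4.71 to 6.22 in treated libraries. Under the spleen label it was 1.99 to 2.64 untreated and 1.95 to 2.74 in treated libraries. These ratios were chosen with earlier results known and were not tested.

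**Figure D4:**
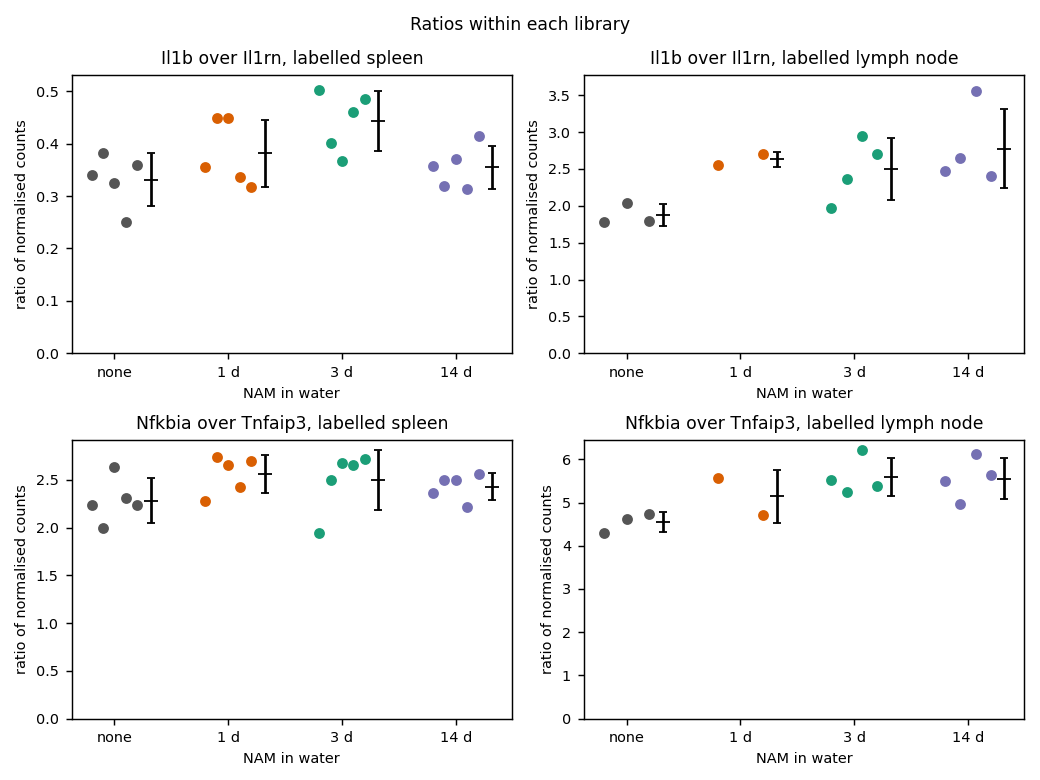
Ratio of normalised counts of Il1b to Il1rn and of Nfkbia to Tnfaip3 in each library (linear axes from 0), by NAM duration and tissue label, with the mean and SD of each group as a black bar. Under the lymph node label 9 of 10 treated libraries exceed the highest untreated ratio of Il1b to Il1rn, 2.04.

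Within groups, the members did not move as a block. Across the 20 libraries labelled spleen, the deviations of Il1b and Il1rn from their group means went together most closely (Pearson r = 0.83), and Tnf went with Nfkbia (0.61) and Tnfaip3 (0.57) but not with Il1b (-0.39). Nfkbia and Il18 had r = 0.66, and Nfkbia and Tnfaip3 0.49. Across the 13 libraries labelled lymph node the highest value was that of Il18 with Il1rn (0.60) and the lowest that of Tnf with Nlrp3 (-0.60). Il1b with Il1rn was 0.32 there, and Nfkbia with Tnfaip3 0.24. Libraries share their depth, scaling and cell composition, so these are descriptions.

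**Figure D5:**
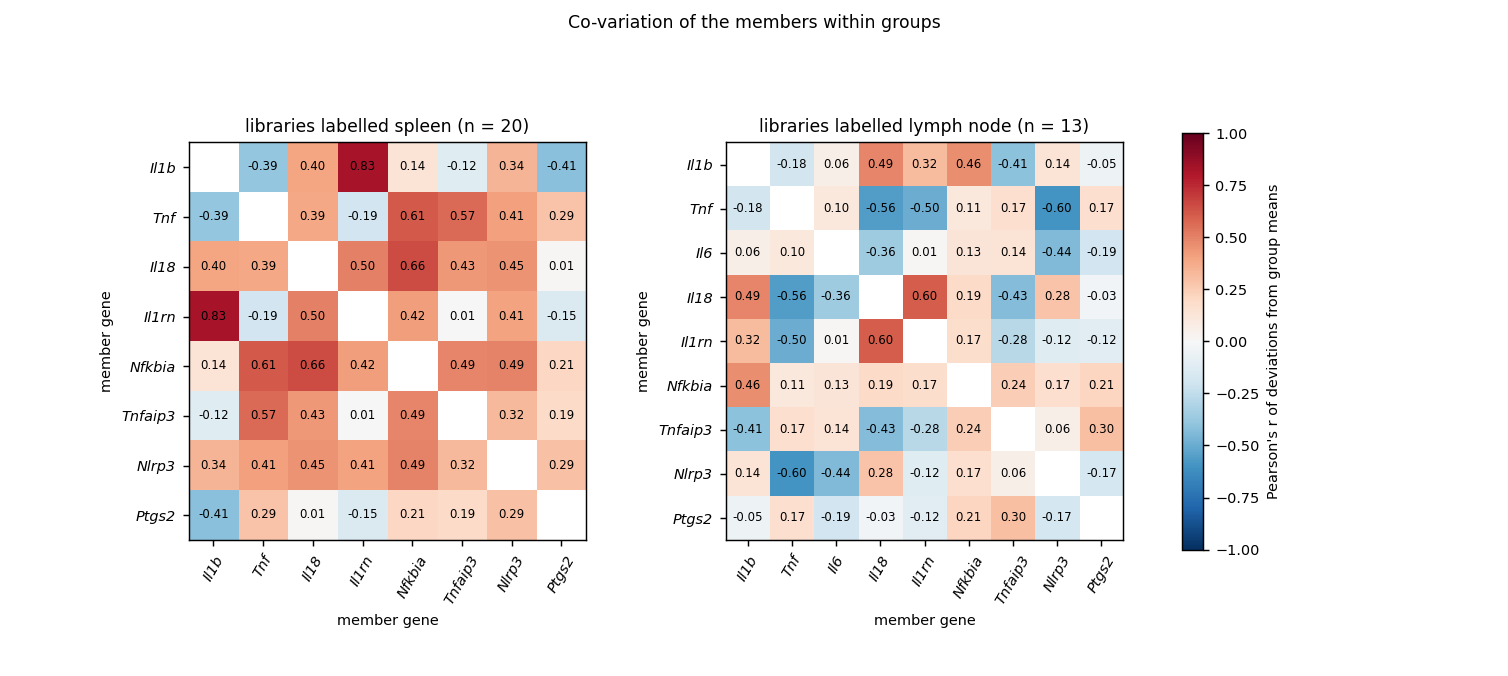
Pearson correlation of the deviations from group means between members past the low-value filter, across the 20 libraries labelled spleen and the 13 labelled lymph node. Red is positive and blue negative, and the strongest pair is Il1b with Il1rn under the spleen label (0.83).

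By the same measure over all genes past the filter, Il1b was most like Ube2s (0.85), Eng (0.84) and Il1rn (0.83) under the spleen label and like Clstn2 (0.92), Dnaic1 (0.90) and Idh3a (0.90) under the lymph node label. Tnf was most like Tnfsf8 (0.93), the row of Syngr2 and Afmid (0.89) and Cd83 (0.885) in the first. In the second it was most like Arhgap27os3 (0.93), a row without a symbol (0.92) and Gm26534 (0.92). Nfkbia was nearest to Dusp2 (0.92), Lrrc61 (0.905) and H2afy (0.90) under the spleen label and to the row of Fbxo6 and Mir7022 (0.91), Tagap (0.905) and Ddrgk1 (0.90) under the lymph node label. The first gene for Tnfaip3 was Tox (0.97) and Pofut1 (0.91) and for Il18 2610528A11Rik (0.90) and Clcc1 (0.96), each for spleen and then lymph node. For Nlrp3 it was Slc37a2 (0.86) for spleen. For Il1rn it was the row of Cfb and Mir6972 (0.83) and Nupr1 (0.93), and for Ptgs2 Rlf (0.77) and B020031M17Rik (0.89). Il6, tested under the lymph node label alone, was nearest to Mettl25 (0.89). These are the highest of 18243 and 18215 values over 20 and 13 libraries.

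The wider NF-kB pathway was counted in a list of 31 subunits and regulators that leaves out the members. Under the spleen label 5 of 31 were lower and 1 was higher at 1 day, 19.4% of the list against 16.6% of all genes, with a median log2 fold change of -0.07. This share is near the background. Rela, the main activating subunit, was at 3198 to 4109 untreated and 2266 to 3015 at 1 day (log2 fold change -0.44, limma adjusted p = 0.00665). Tab2, an adaptor that brings the kinase TAK1 to ubiquitin chains, fell by 0.51 on the log2 scale (adjusted p = 0.00604). Bcl3, an atypical nuclear IkB protein, fell by 0.40 (adjusted p = 0.00783), and Tnip2, a partner of A20, fell by 0.29 (adjusted p = 0.0227). Nfkbib fell by 0.28 (adjusted p = 0.0465), and Chuk, the kinase IKK-alpha, rose by 0.26 (adjusted p = 0.04575). At 3 days 2 of 31 were lower, Rela and Tab2, 6.45% against 5.55% of all genes, and at 14 days 0 were called. From 1 day to 14 days 4 rose and 1 fell, 16.1% against 10.6% of all genes. Bcl3, Tab2 and Rela rose by 0.44, 0.49 and 0.42 on the log2 scale, and Chuk fell. Under the lymph node label 0 of 31 were called at any duration, where 1.21%, 1.24% and 0.791% of all genes were. Birc3, a ubiquitin ligase of the TNF receptor complex, had the smallest p at 1 day (log2 fold change 0.34, limma adjusted p = 0.0514), and Birc2 and Birc3 did at 3 and 14 days.

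The list of the inflammasome and the IL-1 family held 25 genes, of which 12% were called for spleen at 1 day against 16.6% of all genes, and 8.0% for lymph node at 1 day against 1.21%, the latter being 2 genes. In the libraries labelled spleen Irak3, an inactive kinase that restrains IL-1 receptor signalling, and Irak2, a signalling kinase of the same family, fell by 0.50 and 0.25 on the log2 scale at 1 day (limma, adjusted p = 0.00868 and 0.0279), and Nek7, a partner of NLRP3, rose by 0.34 (adjusted p = 0.0116). Il18r1, a chain of the IL-18 receptor, was the only one called at 3 days (log2 fold change 0.36, adjusted p = 0.0425), 4.0% against 5.55% of all genes. At 14 days 0 were called, as were 0% of all genes. Irak2 and Irak3 rose by 0.29 and 0.40 from 1 to 14 days, 8.0% of the list against 10.6% of all genes. Under the lymph node label 2 of 25 were higher at 1 day, both of which encode proteins that bind and neutralise cytokines of the family. Il18bp, the IL-18 binding protein, was at 892 to 1020 untreated and 1328 to 1624 at 1 day (log2 fold change 0.60, limma adjusted p = 0.0113). Il1r2, the decoy IL-1 receptor, was at 88.2 to 107 untreated and 184 to 253 at 1 day (log2 fold change 1.15, adjusted p = 0.0297). Il18bp read 645 to 942 untreated and 551 to 782 at 1 day under the spleen label, and its change differed between the labels by -0.88 (limma adjusted p = 0.0119). It was 1 of 2 genes of the 25 with such a call at 1 day, 8.0% against 1.69% of all genes, the other being Il1r2 (log2 difference -1.06, adjusted p = 0.0390). At 3 days 2 were called, 8.0% against 0.735%, Il18bp (adjusted p = 0.0285) and, with a higher change under the spleen label, Il1rl1 (1.99, adjusted p = 0.0463). Without lymph node NAM 1 d replicate 1, the library that stood apart, the change of Il18bp there was 0.74 (adjusted p = 0.0118) and that of Il1r2 1.38 (adjusted p = 0.0586), and the differences between labels were -1.02 (adjusted p = 0.0293) and -1.29 (adjusted p = 0.0692). Without replicate 2 neither gene was called in either comparison (adjusted p = 0.124 to 0.245). On leaving out each library in turn, an alternative added after the data were seen, the call of Il1r2 under the lymph node label was lost in 5 of 5 cases and that of Il18bp in 2 of 5. The differences were lost in 1 of 15 cases for Il18bp and 10 of 15 for Il1r2 at 1 day, and in 6 of 17 for Il18bp and 15 of 17 for Il1rl1 at 3 days. At 3 and 14 days 0 of 25 were called under the lymph node label, where 1.24% and 0.791% of all genes were. The smallest p was that of Il18bp at 3 days (0.38, adjusted p = 0.0507) and of Il1rl1 at 14 days (-2.04, adjusted p = 0.0593).

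Of 16 genes of TNF and IL-6 signalling, 1 was called in any comparison with untreated mice, 6.25% at that duration against 16.6% of all genes. Socs3, the feedback inhibitor of IL-6 receptor signalling, fell by 0.25 on the log2 scale at 1 day under the spleen label (limma, adjusted p = 0.0353). In the prostaglandin list 15 of 16 genes were tested, with 13.3% called at 1 day under the spleen label, also below 16.6%. Ptger4 and Ptger1, receptors for prostaglandin E2, fell by 0.50 and 1.03 on the log2 scale at 1 day under the spleen label (adjusted p = 0.00297 and 0.00317). They rose by 0.34 and 0.87 from 1 to 14 days, 13.3% of the list against 10.6% of all genes. Ptger1 was at 75.8 to 127.5 untreated and 38.9 to 69.0 at 1 day. Ptges3 rose by 0.43 at 3 days under the spleen label (adjusted p = 0.0190), 6.67% of the list against 5.55% of all genes. Under the lymph node label 0 genes of this list were called, where 1.21%, 1.24% and 0.791% of all genes were at 1, 3 and 14 days. Of 10 genes listed for CXCR2 ligands and receptors, among them Csf3r, which is neither, 6 were past the filter for spleen and 7 for lymph node. Csf3r, the receptor for the neutrophil growth factor G-CSF, fell by 0.59 on the log2 scale at 1 day under the spleen label (adjusted p = 0.0373), which is 16.7% of the 6 tested, and no other gene of the list was called.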

How the data were processed

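The authors deposited 1 table of normalised read counts, a signal in which each library's reads per gene are divided by a DESeq2 size factor. The submitters' processing notes name STAR 2.4.0, Picard, SAMtools, FastQC, DESeq2 and mm10. Counting and strand use for this table are not given in the sources used here. Each column was matched to its sample by description, and 0 columns were left over. Whole reads were recovered in every library (100% of values within 0.02 of a whole number). The authors' size factors matched recomputed ones within each label (ratios 0.9943 to 1.0045), so the labels were scaled apart.

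Genes with a mean normalised count of at least 10 in the label's libraries were tested with limma 3.58.1 (R 4.3.3, trend) on log2(normalised count + 1), all groups of a label in 1 fit, two-sided, Benjamini-Hochberg adjusted over all genes tested, threshold 0.05. A fold change on this scale understates that of low genes. Differences between labels came from 1 fit of all 8 groups. Members under the filter had exact permutation tests. Members were named whatever their values, with up to 4 called genes of each pathway list and comparison. For the NF-kB list at 1 day under the spleen label all 6 were named. Where none was called the gene of smallest p could be named. The gene most like Nlrp3 under the lymph node label is not reported here. The members and lists were chosen with earlier results of these data known. The labels do not say whether 1 animal gave both organs, and this was a single experiment, so p-values measure the spread between these samples. In 56 pairs of replicate libraries the lowest chi-square per degree of freedom was 8.25, and none was counted as a duplicate.

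Alternatives covered the pseudocount, filter, scaling, samples in the fit, library weights, replicate block, threshold, each library left out, edgeR 4.0.16, DESeq2 1.42.0 and, added after the data were seen, an adipocyte covariate. The test was checked on simulated data. Python 3.11.15, pandas 2.3.3, numpy 2.4.6 and scipy 1.17.1 were used.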

Additional observations from a re-analysis of the deposited data

Results flagged for a closer look

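Of 60 groups of 4 or 5 libraries of a member, 4 held a library far from the others by Dixon's criterion, and chance alone gives about 1 in 20. Tnfaip3 in NAM 1 d replicate 2 under the spleen label was 1859, with the next library at 2418. Il1rn in NAM 3 d replicate 4 under the lymph node label was 295, with the next at 354. Il18 in NAM 14 d replicate 2 under the lymph node label was 2671, with the next at 3439. Cxcl2 in untreated replicate 3 under the spleen label was 0, with the next at 3.10.

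The change after 1 day differed between the labels for Nfkbia (log2 difference -0.55, limma adjusted p = 0.0402) and for Tnfaip3 (log2 difference -0.54, limma adjusted p = 0.0386), each the change under the spleen label minus that under the lymph node label.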

How the results depend on the processing

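Of 252 recomputed counts of called members 51 moved by over 1.5 times. The 6 calls of a member were lost in 50 of 136 recomputations, none reversed, and 28 calls were gained elsewhere among 2076 recomputed changes. A change of sign between values that both miss the threshold was not counted as a reversal. Il1rn at 1 day under the spleen label kept its call in all 23 alternatives. At 1 day under the spleen label 1 member was called, not 2, in edgeR, without the filter, with only the groups compared, by an unadjusted p with a 1.5-fold change, and with the adipocyte score as covariate, and 1 to 2 on leaving out a library. At 3 days there the count of 0 became 1 in DESeq2, 3 with library weights, and 0 to 1 on leaving out a library. For lymph node the 1 call at 1 day became 2 in DESeq2, with only the groups compared and with the replicate block, and 0 to 1 on leaving out a library. The 1 call at 3 days became 2 in DESeq2 and with library weights, and 0 in edgeR, without the filter, under quantile normalisation, by unadjusted p with a 1.5-fold change and with the replicate block. It was 0 to 1 on leaving out a library. At 14 days the 0 calls became 2 in DESeq2 and with library weights, 1 with the replicate block, and 0 to 1 on leaving out a library. In these lymph node gains the added call was Il1b, joined at 14 days by Nfkbia in DESeq2 and with library weights. The 2 differences between labels at 1 day became 4 in DESeq2, 0 without the filter or with only the groups compared, and 0 to 2 on leaving out a library. At 3 days the 0 became 1 with library weights, and at 14 days 1 by unadjusted p with a 1.5-fold change. The cause of these shifts was not tested. Cxcl2 at 14 days under the spleen label had an unadjusted exact permutation p of 0.03175 without untreated replicate 3 (0.2143 with it, 0.643 after adjustment), the only change of side on the unadjusted scale among 88 alternatives for members under the filter.

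The replicate numbers did not meet the criterion for pairing, a correlation of over 0.1 in every same-numbered pair. For lymph node the values lay between -0.107 and 0.079. For spleen all 12 pairs of replicates 1 to 4 among untreated, 1 day and 14 days were at 0.108 to 0.468, the 3 pairs of replicate 5 there at -0.324 to 0.020 and the 15 pairs with 3 days at -0.496 to 0.111. A library correlated best with its own number in 11 of 60 library and group pairs for spleen and 10 of 32 for lymph node. The block changed no call of a member for spleen. With the replicate block Il1b was called at 1 and 14 days for lymph node (adjusted p = 0.0213 and 0.0286) and Nfkbia at 3 days was not (adjusted p = 0.0922).

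Counts over all genes moved too, and those over 1.5 times from the reported count follow. For spleen at 3 days the 1013 genes became 1686 in DESeq2, 4722 with library weights, 145 with only the groups compared, 572 without the filter, 2071 with the adipocyte covariate, 620 by unadjusted p with a 1.5-fold change and 159 to 2783 on leaving out a library. The 1.5-fold rule gave 1497 for 3030 at 1 day, 943 for 1940 between 14 and 1 day (1214 to 1819 on leaving out a library, 2915 with the covariate) and 204 for 0 at 14 days, where the filter's removal gave 1 and the covariate 2. For lymph node the 221 at 1 day became 540 in DESeq2, 139 without the filter, 132 with the block, 894 by the 1.5-fold rule and 66 to 125 on leaving out a library. The 226 at 3 days became 493, 557 with weights, 615 by that rule and 84 to 302, and the 144 at 14 days 381, 278 with weights, 630 and 31 to 159. The 2 between 14 and 3 days ranged from 0 to 278. The differences between labels gave 290 genes at 1 day (58 to 1156 over the alternatives), 126 at 3 days (33 to 1944) and 24 at 14 days (4 to 430).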
